A study of Homo sapiens with 6 samples.

Results

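Among 8899 regions of the human genome that carried an H3K79me2 or H3K79me3 peak in at least 1 of 4 libraries, 333 (3.74%, exact 95% interval 3.36 to 4.16%) had an H3K79me3 peak listed in KDM2B-knockdown cells and not in control cells, with an H3K79me2 peak listed in a single cell line. They were chosen by the presence and absence of called peaks, after the 4 lists (chromosomes 1 to 22, X and Y) had been merged wherever peaks shared at least 1 bp. A region was kept if it held a knockdown H3K79me3 peak, no control H3K79me3 peak, and an H3K79me2 peak of exactly 1 line. In 158 regions the H3K79me2 peak came from knockdown cells, so both marks were listed in knockdown cells only; these are called knockdown-H3K79me2 regions. In 175 regions it came from control cells, so that H3K79me2 was listed in control cells and H3K79me3 in knockdown cells; these are called control-H3K79me2 regions.

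H3K79me2 and H3K79me3 are histone H3 carrying methyl groups on a lysine of the globular core, K79, which DOT1L adds step by step, so that both forms are commonly found over the first part of active genes. KDM2B, of the JmjC family, binds unmethylated CpG islands through its CXXC zinc finger and belongs to a variant Polycomb complex. The study asked whether it also removes methyl groups from H3K79. In the regions described here the peak lists of the lines differ in both marks.

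The cells were 293T, an embryonic kidney line of human origin that expresses SV40 large T antigen. Knockdown cells stably expressed a hairpin against KDM2B (shKDM2B), and control cells a control hairpin (shCTL). Each line gave 1 library per antibody (H3K79me3 with Abcam ab2621, H3K79me2 with ab3594, the same lot in both lines) and 1 input library without antibody, so no difference between the lines has a replicate check and no p-value is given. The labels do not state whether a line is a clone or a pool, and the KDM2B level was not analysed here. Intervals on RPM cover the counting error of tags only. Intervals on shares are binomial over regions, as if regions were independent, and hold no error of tag counts or peak calling.

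After removal of duplicate tags the ChIP libraries held 13144744 to 17044011 tags. Knockdown H3K79me2 had the fewest, 0.821 of the tags of its control counterpart, and knockdown H3K79me3 had 0.962 of its own. The fragment length estimated by the peak caller was 126 bp for knockdown H3K79me3 and 210 bp for knockdown H3K79me2, against 180 bp for control H3K79me3 and 148 bp for control H3K79me2. The caller scans with a window set by that length, so widths from different libraries are not on 1 scale. Values per peak are the authors' own. Tags are given as RPM, tags per 1000000 filtered tags of the library, and, where width matters, as RPM per kb of called peak. The score is the caller's significance, with a threshold of 50. A list holds only what passed that threshold, and the level of a region that did not pass is unknown. No hg19 gene annotation or genome was used, so regions are given by position, without gene names or sequence.

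The sizes of both groups follow from the rule and are a description. The 158 knockdown-H3K79me2 regions made up 47.4% and the 175 control-H3K79me2 regions 52.6% of the members. Over the whole series, 24.6% of the regions with an H3K79me3 peak had it in knockdown cells only, 10.1% of the regions with an H3K79me2 peak had it in knockdown cells only, and 17.2% had it in control cells only. The balance between the groups depended on how the lists were thinned. When every list was cut to an equal number of top peaks the groups held 114 and 58 regions, with the higher-scoring 50% of each list 81 and 130, and with a fold enrichment of at least 5 they held 128 and 302. Most members were weak. In the higher-scoring 50% of the lists 1 of the 158 knockdown-H3K79me2 regions and 5 of the 175 control-H3K79me2 regions were found again.

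The knockdown H3K79me3 peaks of both groups come from 1 list and can be set side by side directly. In knockdown-H3K79me2 regions they were short and held few tags. Their level had a lowest value of 0.610, a median of 2.32 and a highest value of 125 RPM (quartiles 1.16 and 4.07, n = 158). In control-H3K79me2 regions the lowest value was the same, 0.610 RPM, but the median was 4.52 and the highest 88.7 RPM (quartiles 1.77 and 12.5, n = 175). The groups overlapped over nearly their whole range. Both quartiles and the median were higher in control-H3K79me2 regions, and the gap was widest at the upper quartile.

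The same held for width. The H3K79me3 peak spanned a median of 1011 bp in knockdown-H3K79me2 regions (quartiles 548.75 and 1556 bp) and 1404 bp in control-H3K79me2 regions (quartiles 780 and 3347.5 bp). It was wider than 3000 bp in 9 of 158 knockdown-H3K79me2 regions (5.70%, 95% interval 2.64 to 10.5%) and in 53 of 175 control-H3K79me2 regions (30.3%, 23.6 to 37.7%). Over the whole knockdown H3K79me3 list the share was 38.1%, and among other regions with knockdown-only H3K79me3 it was 5.22% with H3K79me2 in both lines and 37.2% with it in neither. Knockdown-H3K79me2 regions were thus short relative to the list, like those with H3K79me2 in both lines. Peaks narrower than 1000 bp made up 79 of 158 and 62 of 175 regions. Fold enrichment over the library's own local background went the other way, with medians of 6.37 in knockdown-H3K79me2 regions and 4.73 in control-H3K79me2 regions. Wide peaks had low folds in either group: across regions of 1 library, Spearman's rho between width and fold was -0.68 (n = 158) and -0.77 (n = 175).

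**Figure D1:**
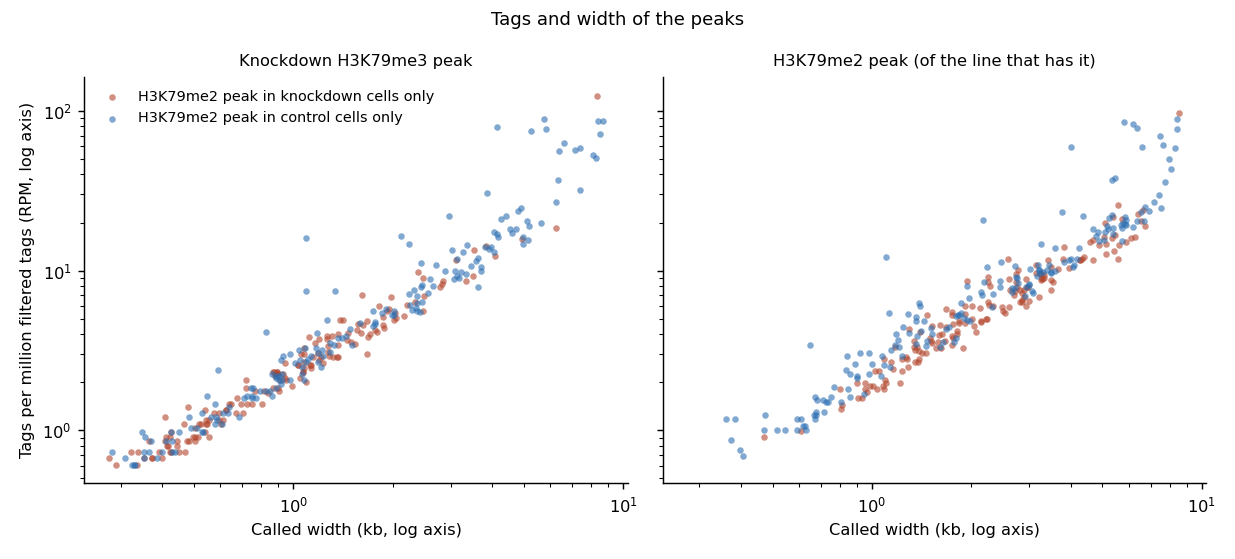
Tags (RPM, log axis) against called width (kb, log axis) of the knockdown H3K79me3 peak (left) and of the H3K79me2 peak of the line that has it (right), each point being 1 of the 158 knockdown-H3K79me2 or 175 control-H3K79me2 regions. Both groups share a common band, and the points of control-H3K79me2 regions reach further to wide peaks with many tags.

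Within a width class the H3K79me3 peaks of both groups had similar medians of density up to 3000 bp. Below 1000 bp the median was 2.10 RPM per kb in knockdown-H3K79me2 regions and 2.16 in control-H3K79me2 regions, and from 1000 to 3000 bp it was 2.53 and 2.73. All knockdown H3K79me3 peaks of the series, for comparison, had medians of 2.31 and 3.87 RPM per kb in these classes. From 3000 to 5000 bp the 7 knockdown-H3K79me2 regions had a median of 3.19 RPM per kb and the 34 control-H3K79me2 regions 3.62, against 6.13 for the list. Regions with peaks of 5000 bp and over numbered 2 and 19. The 19 control-H3K79me2 regions among them had a median of 7.94 RPM per kb, near the 7.74 of all knockdown H3K79me3 peaks of that width, but a median score of 106 against 222.

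By score, the H3K79me3 peaks of both groups lay near the calling threshold. The median score was 77.1 in knockdown-H3K79me2 regions and 79.6 in control-H3K79me2 regions, against 216 over the whole list. Scores under 60 were found in 52 of 158 knockdown-H3K79me2 regions (32.9%, 95% interval 25.7 to 40.8%) and in 44 of 175 control-H3K79me2 regions (25.1%, 18.9 to 32.2%), against 7.80% of the whole list. Where H3K79me3 was new but H3K79me2 was listed in both lines (958 regions), 10.6% (8.77 to 12.8%) had such scores and the median was 107. Where it was new with no H3K79me2 in either line (519 regions), 40.5% (36.2 to 44.8%) had them and the median was 63.9. Regions with H3K79me2 in 1 line thus stood between those with H3K79me2 in both lines and those with none, in score and in the share near the threshold. The sets are themselves defined by which peaks passed the score threshold. How far that rule sets this order of scores was not tested. The differences between sets of regions were not tested either, because regions of 1 library are not replicates.

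The H3K79me2 peaks of the members were also from the weaker part of their lists. In knockdown-H3K79me2 regions the knockdown H3K79me2 peak had a lowest level of 0.913, a median of 5.90 and a highest of 97.4 RPM, against a median of 11.6 RPM for the whole knockdown H3K79me2 list. In control-H3K79me2 regions the control H3K79me2 peak had a lowest level of 0.687, a median of 7.24 and a highest of 89.3 RPM, against a median of 11.0 RPM for the whole control H3K79me2 list. The lowest 25% of the list by score held 91 of the 158 knockdown peaks (57.6%, 95% interval 49.5 to 65.4%) and 124 of the 175 control peaks (70.9%, 63.5 to 77.5%). Both marks scored at least 100 in 25 knockdown-H3K79me2 regions and 26 control-H3K79me2 regions, and both scored under 60 in 13 and 15. Where both reached 100, the median H3K79me3 level was 3.72 RPM in 1305 bp for knockdown-H3K79me2 regions and 13.6 RPM in 3591 bp for control-H3K79me2 regions.

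Scaling by depth shows how many tags such a peak could have given in the other library. The knockdown H3K79me2 peaks of knockdown-H3K79me2 regions held a median of 77.5 tags, which at the depth of the control library would be 94.4 tags, with a lowest value of 14.6. The control H3K79me2 peaks of control-H3K79me2 regions held a median of 116 tags, which at the depth of the knockdown library would be 95.2 tags, with a lowest value of 9.03. The smallest count called as a peak was 12 tags in the knockdown H3K79me2 list and 11 tags in the control H3K79me2 list. The weakest members were thus close to the fewest tags that either list held. The median member held more tags, but that fewest count is not a calling limit for every peak. By score these H3K79me2 peaks had medians of 83.2 in knockdown-H3K79me2 and 77.6 in control-H3K79me2 regions, against the threshold of 50. Whether depth or threshold accounts for the missing peaks was not tested.

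Where both marks were listed, the H3K79me3 peak lay inside the H3K79me2 peak in most knockdown-H3K79me2 regions. It lay wholly within it in 131 of 158 (82.9%, 95% interval 76.1 to 88.4%), and in none did the H3K79me2 peak lie within the H3K79me3 peak. In control-H3K79me2 regions, where the peaks come from different lines, H3K79me3 lay within H3K79me2 in 93 of 175 (53.1%, 45.5 to 60.7%), the reverse held in 14, and in 68 each peak extended past the other at 1 end. This geometry was shared with the rest of the series. Among all regions with 1 knockdown peak of each mark, H3K79me3 lay within H3K79me2 in 84.0%, and among all regions with 1 knockdown H3K79me3 and 1 control H3K79me2 peak in 60.6%. The estimated fragment was longest, 210 bp, in the library whose peaks enclosed the others most often. Its part in the nesting was not tested.

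**Figure D2:**
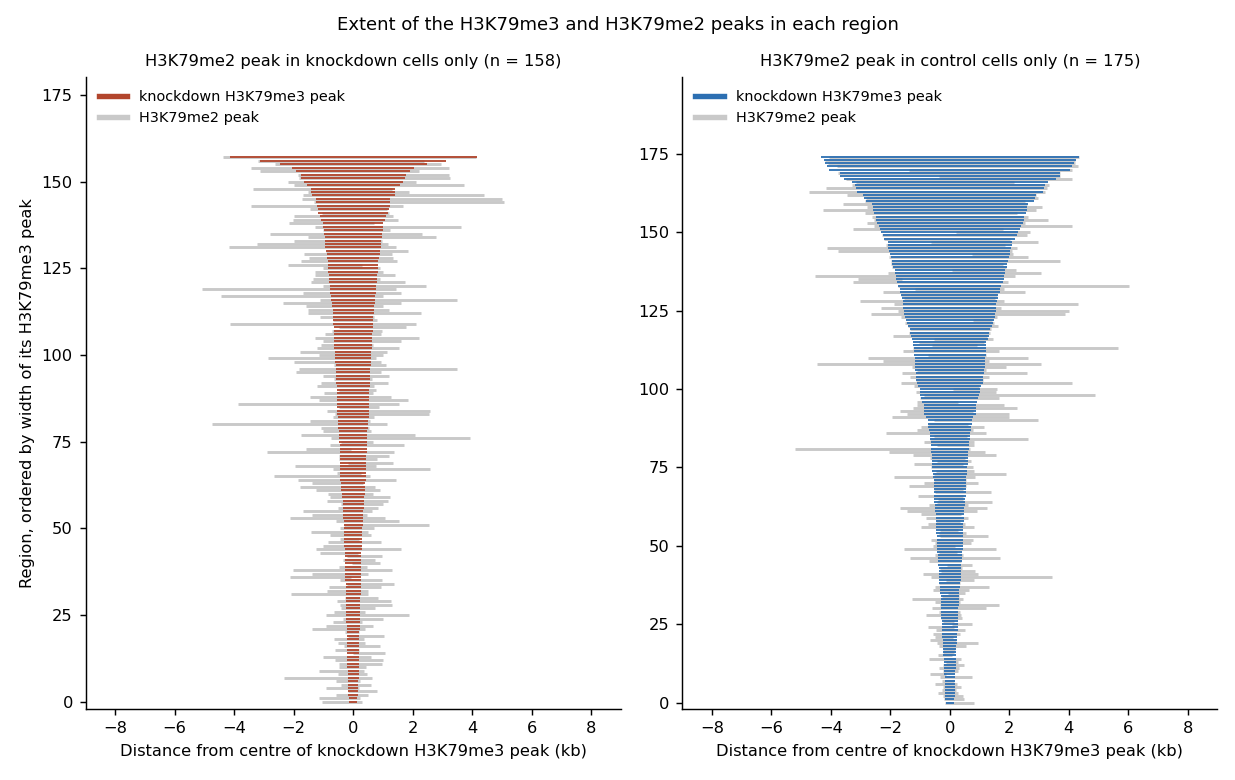
Extent of the knockdown H3K79me3 peak (colour) and of the H3K79me2 peak (grey) in each region, as distance in kb from the centre of the H3K79me3 peak, for the 158 knockdown-H3K79me2 (left) and 175 control-H3K79me2 regions (right), ordered by width of the H3K79me3 peak. Grey extends beyond colour on both sides in most regions on the left, and the widest peaks on the right nearly coincide.

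The shared stretch was long relative to the 1 bp that the rule asked for. It had a median of 1003.5 bp in knockdown-H3K79me2 regions and 1262 bp in control-H3K79me2 regions, and covered at least 50% of the H3K79me3 peak in 156 of 158 and 166 of 175. Summits of the marks lay within 500 bp of each other in 112 of 158 (70.9%) and 132 of 175 (75.4%), with medians of 271 and 190 bp. Nearly all members were a single pair of peaks: 154 and 173 regions held 1 peak of each mark. The smallest overlaps in knockdown-H3K79me2 regions were 178 bp at chromosome 10, 60272950 to 60275333, 220 bp at chromosome 3, 183541658 to 183542930, and 276 bp at chromosome 22, 39188771 to 39190120. In control-H3K79me2 regions they were 55 bp at chromosome 5, 127872448 to 127873302, 183 bp at chromosome 12, 77458349 to 77459368, and 187 bp at chromosome 8, 28351770 to 28356659.

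Per kb of peak, the marks had nearly equal RPM in the members, in whichever line H3K79me2 was listed. The values come from different antibodies and libraries, so equal RPM per kb does not show equal amounts of the marks. The median log2 ratio of knockdown H3K79me3 to H3K79me2, in RPM per kb, was -0.11 in knockdown-H3K79me2 regions (quartiles -0.26 and 0.04, n = 158) and -0.06 in control-H3K79me2 regions (quartiles -0.25 and 0.17, n = 175). Over all regions with the corresponding pair of peaks it was 0.12 (n = 5136) and -0.01 (n = 5560). Median densities in knockdown-H3K79me2 regions were 2.31 RPM per kb of H3K79me3 and 2.55 of H3K79me2. The lower quartiles of these lists were higher, 2.95 and 2.61. In control-H3K79me2 regions the H3K79me3 median, 2.74, was also under the lower quartile of its list. The control H3K79me2 median, 2.97, was above the lower quartile of its list, 2.75, and below the median of that list, 3.96. How far the calling threshold brings such densities together was not tested. No member of either group reached a 2-fold difference per kb in either direction. Over all regions the shares that did were 0.214% higher and 0% lower for knockdown H3K79me3 over knockdown H3K79me2, and 0.108% higher and 0.054% lower for knockdown H3K79me3 over control H3K79me2.

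By summed tags the H3K79me3 peak was more often the smaller of the pair, and it was the wider of the pair in 3 of 158 knockdown-H3K79me2 regions and 48 of 175 control-H3K79me2 regions. The median log2 ratio in RPM was -1.29 in knockdown-H3K79me2 regions and -0.37 in control-H3K79me2 regions, with median counting standard errors of 0.29 and 0.22. H3K79me3 was at least 2-fold lower than H3K79me2 in 98 of 158 knockdown-H3K79me2 regions (62.0%, 95% interval 54.0 to 69.6%), against a background of 19.9% of all regions with both knockdown peaks. The 958 regions with knockdown-only H3K79me3 and H3K79me2 in both lines came close to these members. Their medians were 2.75 RPM of knockdown H3K79me3 and 6.28 RPM of knockdown H3K79me2, against 2.32 and 5.90 RPM in knockdown-H3K79me2 regions. By these medians a low ratio was not particular to the members. H3K79me3 was at least 2-fold lower in 47 of 175 control-H3K79me2 regions (26.9%, 20.4 to 34.1%), against 12.1%. At least 2-fold higher H3K79me3 was found in none of the 158 (background 0.175%) and in 5 of the 175 (2.86%, background 1.1%). The 5 are named after their values were seen, and in some of them the difference goes with another measurement. At chromosome 8, 43835971 to 43838924, with 21.97 RPM of knockdown H3K79me3 and 3.43 RPM of control H3K79me2, the region lay on an input peak. At chromosome 8, 28351770 to 28356659, with 7.93 and 3.37 RPM, the peaks shared 187 bp. The levels were 32.1 and 10.5 RPM at chromosome 9, 138979821 to 138987208, 13.1 and 5.12 RPM at chromosome 10, 104948795 to 104952938, and 8.18 and 4.0 RPM at chromosome X, 39963202 to 39965651. At the chromosome 10 region the H3K79me3 peak was 4046 bp wide and the H3K79me2 peak 1363 bp. Its log2 ratio per kb was -0.21, and a control H3K79me3 peak lay 305 bp away. Summed tags follow the called width, and the widths come from libraries with different estimated fragments.

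**Figure D3:**
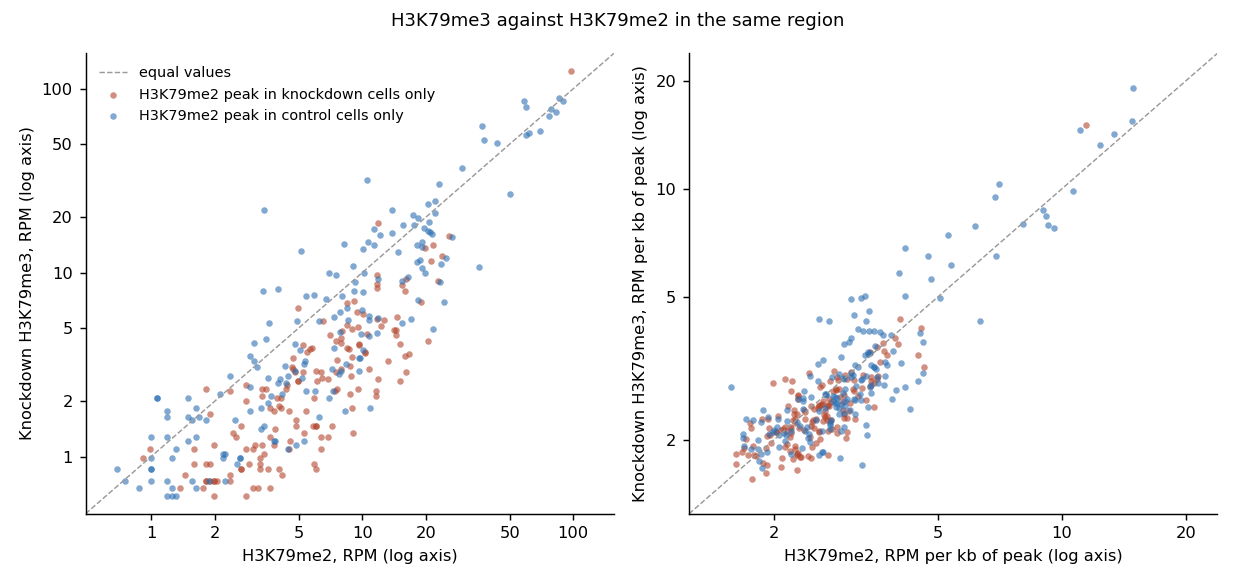
Knockdown H3K79me3 against H3K79me2 in the same region, in RPM (left) and in RPM per kb of peak (right), on log axes, with 1 point per region and the dashed line marking equal values. Points of knockdown-H3K79me2 regions lie mostly below the line in RPM, whereas in RPM per kb both groups lie around it.

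Across members the levels of the marks went together. Spearman's rho between knockdown H3K79me3 and H3K79me2 in RPM was 0.82 over the 158 knockdown-H3K79me2 regions, where both values come from knockdown cells, and 0.88 over the 175 control-H3K79me2 regions, where they come from different lines. Per kb it was 0.72 and 0.79. Each pair shares its position and much of its width, which alone sets part of the count. The scores went together less, with rho of 0.38 and 0.36.

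The strongest knockdown-H3K79me2 regions were of moderate size. The highest H3K79me3 score outside input peaks was 248 at chromosome 10, 103990352 to 103993125 (hg19). There knockdown H3K79me3 reached 5.98 RPM (95% interval 4.85 to 7.29) from 98 tags in 1816 bp, and knockdown H3K79me2 10.0 RPM (8.40 to 11.9) from 132 tags in 2774 bp. Neither control list had a peak nearby, and the nearest control H3K79me3 and H3K79me2 peaks lay 72517 and 71522 bp away. At chromosome 20, 61273758 to 61278829, the score was 223, H3K79me3 stood at 13.5 RPM (11.8 to 15.4) and H3K79me2 at 19.9 RPM (17.6 to 22.5). At chromosome 19, 1400141 to 1401815, the score was 211 with 3.90 RPM of H3K79me3 at a fold of 10.4, and 5.78 RPM of H3K79me2 at a fold of 7.94.

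The next scores of this group were 191 at chromosome 17, 78448454 to 78451194 (3.90 RPM of H3K79me3), 173 at chromosome 15, 62349904 to 62352600 (4.58 RPM), and 170 at chromosome 15, 82944786 to 82950502 (11.6 RPM). In all 6 of these regions H3K79me2 had the higher RPM, and the log2 ratio of H3K79me3 to H3K79me2 in RPM lay between -0.56 and -1.11. The H3K79me2 peak was also the wider in all 6, and per kb the log2 ratio lay between -0.21 and 0.11. The regions longest or highest in tags were others. At chromosome 19, 22817100 to 22823425, H3K79me3 stood at 18.5 RPM and H3K79me2 at 11.9 RPM. At chromosome 1, 93913539 to 93919116, they stood at 15.7 and 25.9 RPM. At chromosome 6, 292511 to 299223, they stood at 6.89 and 19.0 RPM, and at chromosome 14, 24689824 to 24696468, at 12.3 and 23.8 RPM, with a control H3K79me3 peak 732 bp away.

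A single knockdown-H3K79me2 region stood apart in tags. At chromosome 7, 26240942 to 26249481, knockdown H3K79me3 held 2044 tags in 8304 bp, or 125 RPM (119 to 130), and knockdown H3K79me2 1280 tags in 8510 bp, or 97.4 RPM (92.1 to 103). Both scores, 56.1 and 63.3, were close to the threshold, and the folds were 2.78 and 2.51. The nearest control peaks lay 886562 bp away for H3K79me3 and 48342 bp for H3K79me2. The next highest H3K79me3 level in this group was 18.5 RPM.

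Control-H3K79me2 regions had many such members. With a limit of 20 RPM, chosen after the values were seen, knockdown H3K79me3 reached it in 1 of 158 knockdown-H3K79me2 regions (0.633%, 95% interval 0.0160 to 3.48%) and in 23 of 175 control-H3K79me2 regions (13.1%, 8.52 to 19.1%). Of the 23, 19 lay outside input peaks. The limit was reached by 9 of the 958 regions with new H3K79me3 and H3K79me2 in both lines (0.939%) and by 120 of the 519 with H3K79me2 in neither (23.1%, 19.6 to 27.0%). It was reached by 33.2% of all knockdown H3K79me3 peaks, so such a level is common in the list as a whole.

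In these 23 regions the median was 52.6 RPM for knockdown H3K79me3 and 43.4 RPM for control H3K79me2, and the median widths were 6260 and 6184 bp. The levels of the marks were within 1.5-fold of each other in 18 of the 23 (78.3%, 95% interval 56.3 to 92.5%). Over all 5560 regions with both these peaks the share was 68.6%, and over the 1808 of them that reached 20 RPM of knockdown H3K79me3 it was 94.6%. Similar RPM in both libraries was thus not particular to the 23 regions, and at this level it was less frequent among them. H3K79me3 was the higher in 14 of the 23 (60.9%), against 24.8% of the 1808. The 95% counting interval of the ratio held equal levels in 9 of the 23 (39.1%), against 43.1% of the 1808. Control H3K79me3 and knockdown H3K79me2 had no peak within 10 kb of 21 of the 23 regions.

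The highest-scoring of these outside input peaks lay at chromosome 2, 86947338 to 86953184. Knockdown H3K79me3 held 1454 tags, 88.7 RPM (84.2 to 93.4), with a score of 771, and control H3K79me2 held 1370 tags, 85.5 RPM (81.1 to 90.2), with a score of 706. The log2 ratio of these levels was 0.05 with a counting standard error of 0.05. The nearest control H3K79me3 peak was 96945 bp away and the nearest knockdown H3K79me2 peak 96343 bp. Both libraries with a peak there listed a strong one, and neither of the others listed any over a wide stretch around it.

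The same arrangement was found at chromosome 17, 28443011 to 28449378, with 77.4 RPM of knockdown H3K79me3 and 78.5 RPM of control H3K79me2 (log2 ratio -0.02, counting SE 0.06). At chromosome 12, 69863908 to 69870513, the levels were 56.0 and 59.6 RPM (log2 ratio -0.09, counting SE 0.07). At chromosome 21, 27101133 to 27107357, they were 74.6 and 82.8 RPM (log2 ratio -0.15, counting SE 0.06). At chromosome 1, 33424824 to 33430151, they were 24.7 and 22.2 RPM. The difference was larger at chromosome 1, 29562969 to 29567372, with 21.9 RPM of H3K79me3 and 13.8 RPM of H3K79me2 (log2 ratio 0.67, counting SE 0.12), and there a control H3K79me3 peak lay 5317 bp away and a knockdown H3K79me2 peak 5179 bp away.

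The longest control-H3K79me2 regions had high tags but low scores. At chromosome 6, 141211159 to 141219855, knockdown H3K79me3 reached 85.9 RPM in 8682 bp with a score of 56.5, and control H3K79me2 89.3 RPM in 8407 bp with a score of 90.9. At chromosome 1, 20208745 to 20217235, the levels were 71.4 and 76.8 RPM with scores of 53.8 and 64.2. At chromosome 12, 104226809 to 104235230, they were 50.5 and 43.4 RPM with scores of 63.7 and 54.8. At chromosome 1, 247163048 to 247171456, H3K79me3 stood at 86.2 RPM and H3K79me2 at 58.5 RPM (log2 ratio 0.56, counting SE 0.06), with scores of 93.1 and 71.6. The background that the caller used spans 10000 bp of the same library, and these peaks are nearly as long; its part in their scores was not tested.

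Members were mostly far from the peaks they lacked. The nearest control H3K79me3 peak lay at a median of 76820 bp from knockdown-H3K79me2 regions and 96945 bp from control-H3K79me2 regions. It lay within 10 kb of 18 of 158 (11.4%, 95% interval 6.89 to 17.4%) and of 37 of 175 (21.1%, 15.3 to 27.9%). Among other regions with knockdown-only H3K79me3 it was 9.29% (7.53 to 11.3%) with H3K79me2 in both lines and 19.3% (16.0 to 22.9%) with it in neither. The former share was near that of knockdown-H3K79me2 regions and the latter near that of control-H3K79me2 regions. Such shares are thus not particular to the members. An H3K79me2 peak of the line without one lay within 10 kb of 23 of 158 (14.6%) and 29 of 175 (16.6%). Neither missing peak was within 10 kb in 135 of 158 knockdown-H3K79me2 regions (85.4%) and 134 of 175 control-H3K79me2 regions (76.6%).

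**Figure D4:**
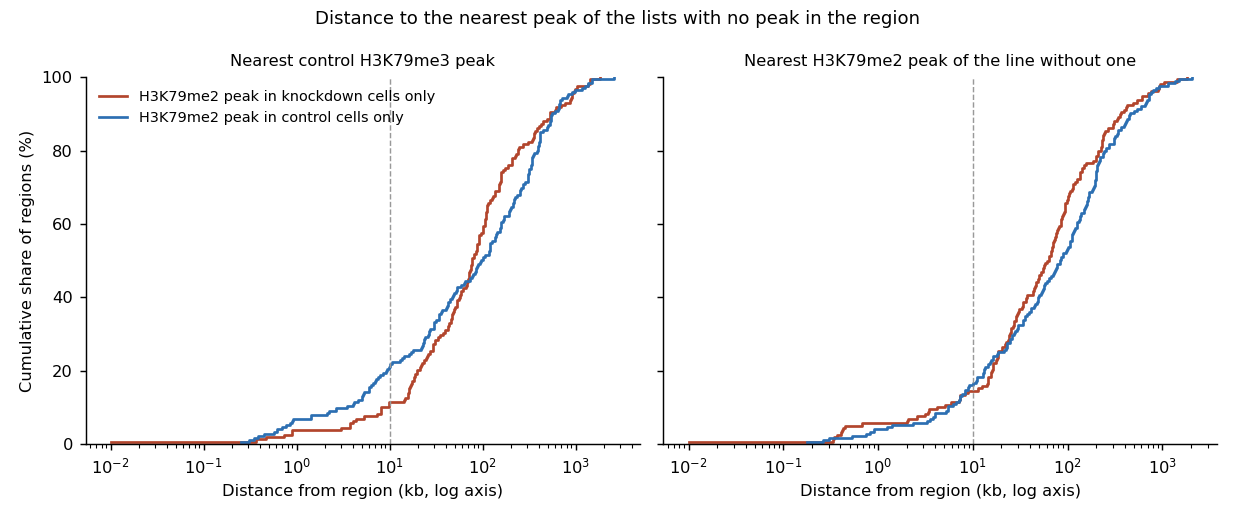
Cumulative share (%) of the 158 knockdown-H3K79me2 and 175 control-H3K79me2 regions against the distance (kb, log axis) to the nearest control H3K79me3 peak (left) and to the nearest H3K79me2 peak of the line that has none in the region (right). The dashed line marks 10 kb, within which 11.4% and 21.1% of the regions had a control H3K79me3 peak, and 14.6% and 16.6% an H3K79me2 peak of the other line.

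Some members lay so near a control peak that a small gap decided their membership. Among knockdown-H3K79me2 regions the region at chromosome X, 131350544 to 131351836, ended 10 bp from both a control H3K79me3 and a control H3K79me2 peak, and had 2.32 RPM of H3K79me3 at a score of 53.6. The next lay at chromosome X, 154297098 to 154299340, at 368 bp from a control H3K79me3 peak, and at chromosome 16, 25266296 to 25268931, at 464 bp. Among control-H3K79me2 regions the nearest lay at chromosome 16, 30205283 to 30206682, at 252 bp, chromosome 10, 104948795 to 104952938, at 305 bp, and chromosome 3, 49711614 to 49712987, at 345 bp.

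Regions that failed the rule only because of a control H3K79me3 peak were ranked by how many bp that peak shared with the knockdown one. Of the 98 regions where both lines had H3K79me3 and knockdown cells alone had H3K79me2, the smallest overlaps of the H3K79me3 peaks were 241 bp at chromosome 13, 110076150 to 110076810 (1.34 RPM in knockdown and 1.23 RPM in control cells), 250 bp at chromosome 4, 190802207 to 190802900 (0.610 and 0.880 RPM), and 270 bp at chromosome 11, 82400383 to 82401040 (0.732 and 2.23 RPM). Of the 505 where control cells alone had H3K79me2, a pair was linked by the H3K79me2 peak alone. They lay at chromosome 10, 35624003 to 35630251 (8.42 RPM in knockdown and 11.9 RPM in control cells), and chromosome 13, 43540154 to 43541346 (1.16 and 0.821 RPM). The third lay at chromosome Y, 13864333 to 13864764, with an overlap of 293 bp (1.65 and 1.76 RPM). Except at chromosome 10, the knockdown levels of these 6 regions were below the medians of both groups of members, 2.32 and 4.52 RPM. A ranking by shared bp favours short peaks, which hold few tags, so nothing is concluded from these low levels.

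Input peaks, the background measured without antibody, touched control-H3K79me2 regions more often than knockdown-H3K79me2 regions. An input peak of either line lay on 3 of 158 (1.90%, 95% interval 0.393 to 5.45%) and on 14 of 175 (8.0%, 4.44 to 13.1%), against 4.28% of all merged regions. Among other regions with knockdown-only H3K79me3 the share was 1.46% with H3K79me2 in both lines and 5.20% with it in neither. Of the 14 control-H3K79me2 regions, 13 were on a knockdown input peak and 11 on a control input peak. They included 3 regions on chromosome 4 between 49093277 and 49157227, 3 on chromosome 1 between 121351621 and 121472051, and the region at chromosome 10, 42527103 to 42531317, which had the highest H3K79me3 score of the group, 781, at 79.3 RPM. These stretches border centromeres in hg19. Without peaks on input peaks the groups held 155 and 163 regions, and the median H3K79me3 level was 2.32 and 3.90 RPM.

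Members were spread over the genome. Knockdown-H3K79me2 regions lay on 22 of 24 chromosomes and control-H3K79me2 regions on 24. Chromosome 19 held 14 knockdown-H3K79me2 regions (8.86%) and 8 control-H3K79me2 regions (4.57%), against 6.75% of all merged regions. Chromosome 17 held 12 (7.59%) and 8 (4.57%), against 6.24%, and chromosome 20 held 8 (5.06%) and 4 (2.29%), against 2.70%. Chromosome 3 held 3 (1.90%) and 10 (5.71%), against 5.52%. The counts per chromosome are small and were not tested.

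**Figure D5:**
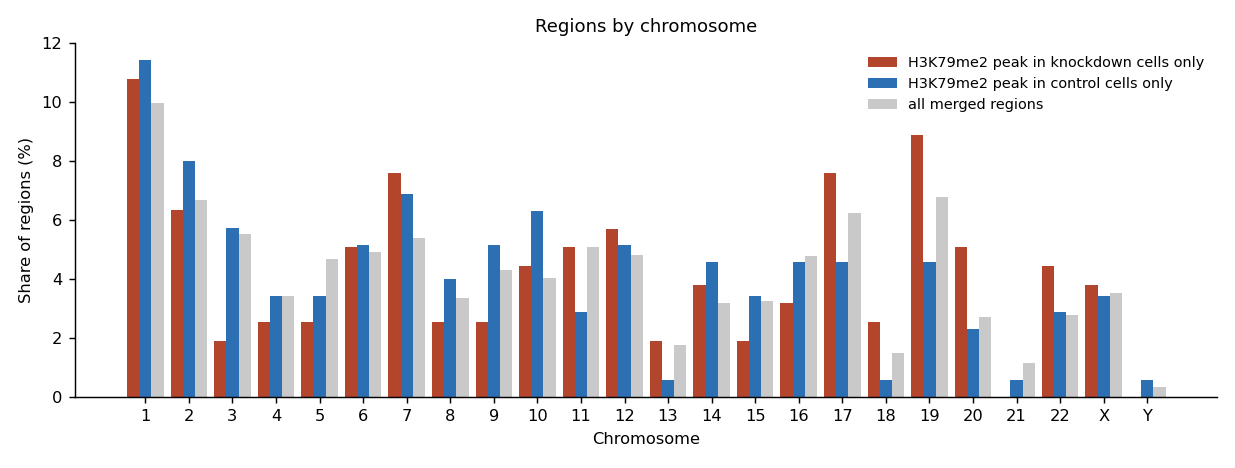
Share (%) of the 158 knockdown-H3K79me2 regions, of the 175 control-H3K79me2 regions and of all 8899 merged regions on each chromosome. On chromosome 19 the bars stand at 8.86%, 4.57% and 6.75%.

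Single members rarely had another member close by. Of neighbouring members, 2 pairs lay within 10 kb and 16 within 100 kb, and of these 16 pairs 10 joined the groups. The closest pair of the same group lay on chromosome 14, where control-H3K79me2 regions at 67039223 to 67043300 and 67050744 to 67052531 were 7444 bp apart. The closest pair across the groups lay on chromosome 7, where the knockdown-H3K79me2 region at 1065693 to 1068295 was followed after 8272 bp by the control-H3K79me2 region at 1076567 to 1077351. The nearest merged region of any kind lay within 10 kb in 27 of 158 knockdown-H3K79me2 regions (17.1%, 95% interval 11.6 to 23.9%) and in 52 of 175 control-H3K79me2 regions (29.7%, 23.1 to 37.1%), against 21.2% of all merged regions. Among other regions with knockdown-only H3K79me3 the share within 10 kb was 16.8% with H3K79me2 in both lines and 32.6% with it in neither. The nearest merged region had both marks in both lines for 39.2% and 44.0% of the members, against 44.3% of all merged regions.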

How the data were processed

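The 4 ChIP and 2 input libraries were analysed from the deposited peak lists. The submitters' processing notes name the build hg19 (GRCh37) and the aligner Bowtie2, without a version. The caller was MACS 1.4.2 on single libraries, per the file headers, with no control file, a p cutoff of 1e-05, 1 tag kept per position and a regional background of 10000 bp. The deposited tags are whole, unnormalized counts per peak. The deposited fold enrichment is a ratio to the library's own local background. The deposited significance, headed as a negative log10 p, is treated as a score, since its lowest value is 50.

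Peaks sharing 1 bp were merged in Python 3.11.15 with pandas 2.3.3 and numpy 2.4.6; the merging and sorting code was tested on simulated peaks. Tags and widths of several peaks of a list in a region were summed, and the highest score and fold taken. Shares carry Clopper-Pearson and RPM exact Poisson 95% intervals (scipy 1.17.1). The members, the alternatives and the rule for naming regions were chosen with earlier results of these data known. The rule named, per group and outside input peaks, the 6 highest H3K79me3 scores, the 3 highest levels of each mark and the 3 longest regions, plus the 3 smallest overlaps, the 3 nearest to a control H3K79me3 peak and the 3 nearest non-members; regions on input peaks, pairs of members and the 20 RPM limit were added after the values were seen. A comparison by gene had been planned and was not made, because an hg19 annotation was not used here.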

Additional observations from a re-analysis of the deposited data

Results flagged for a closer look

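Peaks on sequences other than chromosomes 1 to 22, X and Y were left out of the comparisons but hold regions of the same kind. Of 251 merged regions there, 4 had both marks listed in knockdown cells only, with 15 to 90 tags of knockdown H3K79me3, and 11 had H3K79me2 in control cells only, with 11 to 195 tags.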

How the results depend on the processing

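Each of 9 values was recomputed under 11 other settings. The median level and width of the knockdown H3K79me3 peak were higher in control-H3K79me2 than in knockdown-H3K79me2 regions under all 11. The group sizes were not ordered the same way: knockdown-H3K79me2 regions outnumbered the others under 3 settings. Several settings kept most of the reported regions, for example 155 of 158 and 161 of 175 without peaks on input peaks. The 11 settings are thus not independent checks of these orders. The cause of each change between settings was not tested.

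With the higher-scoring 50% of each list the members numbered 211 (81 knockdown-H3K79me2 regions), the median levels were 8.79 and 14.0 RPM, the median widths 2114 and 2914.5 bp, and 8.64% of knockdown-H3K79me2 and 6.15% of control-H3K79me2 regions had a control H3K79me3 peak of the thinned list within 10 kb, the reverse of the order reported. This setting kept 1 and 5 of the reported regions, and 54 of its 81 and 123 of its 130 regions lay on a control H3K79me3 peak of the full list. So did 12 of 152 and 58 of 159 with scaled scores, and 26 of 128 and 84 of 302 with a fold of at least 5: H3K79me3 is not new there, and the medians under these 3 settings describe partly other regions. With every list cut to an equal number of top peaks the members numbered 172 (58 control-H3K79me2 regions), the medians were 3.78 and 8.42 RPM and 1363 and 2520 bp, and 6.14% of knockdown-H3K79me2 regions had a control H3K79me3 peak within 10 kb. This equal-number setting kept 55 of the 158 knockdown-H3K79me2 and 38 of the 175 control-H3K79me2 regions reported. Its medians thus also describe partly other regions. With scores scaled to the shallowest library the medians were 2.99 and 8.85 RPM and 1177 and 2450 bp. With a fold of at least 5, control-H3K79me2 regions numbered 302, and the shares within 10 kb were 5.47% and 7.28%. That share among control-H3K79me2 regions was 13.9% with peaks within 1 kb merged and 15.3% with no missing-list peak allowed within 1 kb. Both shares were 0% by construction with none allowed within 10 kb.

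No paired analysis was possible because each group has 1 library. The depth and the score threshold limit what a missing peak can show: a level under the threshold and no signal look alike in these lists. This is not limited to low levels, as listed peaks of 71.4 to 125 RPM had scores of 53.8 to 56.5, close to the threshold.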
